A study of Mus musculus with 24 samples.

Results

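Binding of Foxa1 and of Foxa2 was compared between 2 lines of induced hepatocyte-like (iHep) cells, using 6 of the 14 ChIP-seq peak lists of the series. ChIP-seq sequences the DNA that an antibody pulls down with its protein, and a peak is a stretch where those fragments pile up. The lists were chosen by their titles: 3 lists of line 4a1 with a Foxa1 antibody and 3 of line 4a2 with a Foxa2 antibody, in each line EGS 1, EGS 2 and non-EGS 2, where the number is the culture number. They held 18318 of the 26332 peaks of the 14 lists, and overlapping peaks of the 6 lists merged into 12815 regions. Line 4a1 was infected with Foxa1 and Hnf4alpha, and line 4a2 with Foxa2 and Hnf4alpha, so both lines carry Hnf4alpha and differ in the Foxa factor. Both started as C57BL/6 mouse embryonic fibroblasts from embryos of 13.5 days post coitum. A difference between lines is therefore at once one of cell line, of factor and of antibody, which cannot be told apart. The labels do not spell out EGS, which is used here only as the labels use it, and do not say how the factors were driven or whether a line is a clone. Lists of Foxa3 in line 4a3 (infected with Foxa3 and Hnf4alpha; 3 lists) and of Foxa1, Foxa2 and Foxa3 in hepatocytes from 10-week-old mice (3 lists) served as outside readouts, and 2 Flag lists entered no comparison.

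Foxa proteins are forkhead transcription factors, known as pioneer factors because they can bind sites in compacted chromatin and open them for other factors. Foxa1 and Foxa2 have closely similar DNA-binding domains, bind largely the same motif and partly stand in for each other in liver development. Hnf4alpha is a nuclear receptor that binds many liver enhancers together with Foxa proteins, and fibroblasts given Hnf4alpha with 1 Foxa factor take on hepatocyte-like features. Peak lists carry no expression values, so the identity of the cells could not be checked against marker genes, and no gene is assigned to a region because the annotation at hand is of another genome build than the files (mm9).

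The 6 lists were of unequal length, and the non-EGS lists were the longest in both lines. In line 4a1 the Foxa1 antibody gave 940 peaks in EGS 1, 542 in EGS 2 and 3431 in non-EGS 2. In line 4a2 the Foxa2 antibody gave 957, 1040 and 11408 peaks. The line 4a2 lists were 1.87 times as long on the geometric mean (2248 against 1205 peaks). The difference in log10 peak number was -0.27 for 4a1 minus 4a2 (SD 0.41 and 0.61, n = 3 libraries a line). It did not exceed the spread between libraries, which includes the gap between EGS and non-EGS lists (exact permutation p = 0.5, two-sided). The smallest p that 3 against 3 libraries allow is 0.1. Matched by culture number and EGS status, the Foxa2 list was the longer one in each pair, though by few peaks in EGS 1. An exact sign-flip test over these pairs gave p = 0.25, the smallest possible. Without the Foxa2 non-EGS list the difference turned to 0.08, which sets all Foxa1 lists, non-EGS included, against Foxa2 EGS lists only. With EGS lists only in both lines it was -0.145 (exact permutation p = 0.333). The labels do not say that culture numbers are separate inductions, so a p-value over libraries reflects only how these samples vary, and that variation may be technical. EGS 2 and non-EGS 2 of a line carry the same culture number and may come from the same culture. All tests over libraries counted them as separate libraries. The read depth behind the lists is unknown.

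Peak width followed EGS status rather than line. The median peak of Foxa1 was 143 bp wide in EGS 1, 144.5 bp in EGS 2 and 417 bp in non-EGS 2, and that of Foxa2 was 142, 135.5 and 458 bp. The values of the EGS lists lay within 10 bp of each other across lines, and both non-EGS medians stood far above them. No non-EGS peak was under 200 bp, whereas between 74.9% and 87.7% of the peaks of an EGS list were. The lines' mean log2 median widths differed by -0.01 (exact permutation p = 1). Run codes in the titles differ along with EGS status (R164 or R170 in EGS lists, R225 and R215 in non-EGS lists), so the run and EGS status cannot be told apart.

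The Foxa1 EGS 2 list stood apart from the others before any comparison. It was the only list from run R170, and 91 of its 542 peaks (16.8%) lay in dense runs, stretches where at least 10 peaks of a list follow each other with gaps of at most 2 kb. Its own dense runs were chr9:3000013-3038290 and chr17:39980033-39985687. The other compared lists had 2 to 13 peaks in such stretches.

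The first question was how many sites a line shares with the other. A peak counted as shared where it overlapped any peak of the other line's 3 lists by at least 1 bp. In line 4a1, 877 of 940 Foxa1 peaks of EGS 1 were shared (93.3%, exact 95% interval 91.5 to 94.8), 403 of 542 of EGS 2 (74.4%) and 2460 of 3431 of non-EGS 2 (71.7%). In line 4a2, 566 of 957 Foxa2 peaks of EGS 1 were shared (59.1%), 518 of 1040 of EGS 2 (49.8%) and 2777 of 11408 of non-EGS 2 (24.3%). All 3 Foxa1 lists thus had higher shares than all 3 Foxa2 lists. Without the peaks in dense runs, the share of Foxa1 EGS 2 was 87.1%, and the order between lines was unchanged. Intervals cover counting error only, and neighbouring peaks are not independent.

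These shares moved with the length of the list searched. Of the Foxa1 non-EGS peaks, 71.6% lay in the Foxa2 non-EGS list, and only 21.5% of the Foxa2 non-EGS peaks lay in the Foxa1 non-EGS list. When the Foxa2 non-EGS list was limited to its 3431 top-scoring peaks, as many as the Foxa1 list holds, the 2 shares were 45.6% (interval 43.9 to 47.3) and 45.5% (43.8 to 47.2). Each pair of shares rests on nearly 1 overlap count (2457 and 2456 peaks for the full lists, 1564 and 1562 at equal length), divided by the length of either list. The score is the authors' own value of each peak, and here it serves to order the peaks of 1 list.

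**Figure D1:**
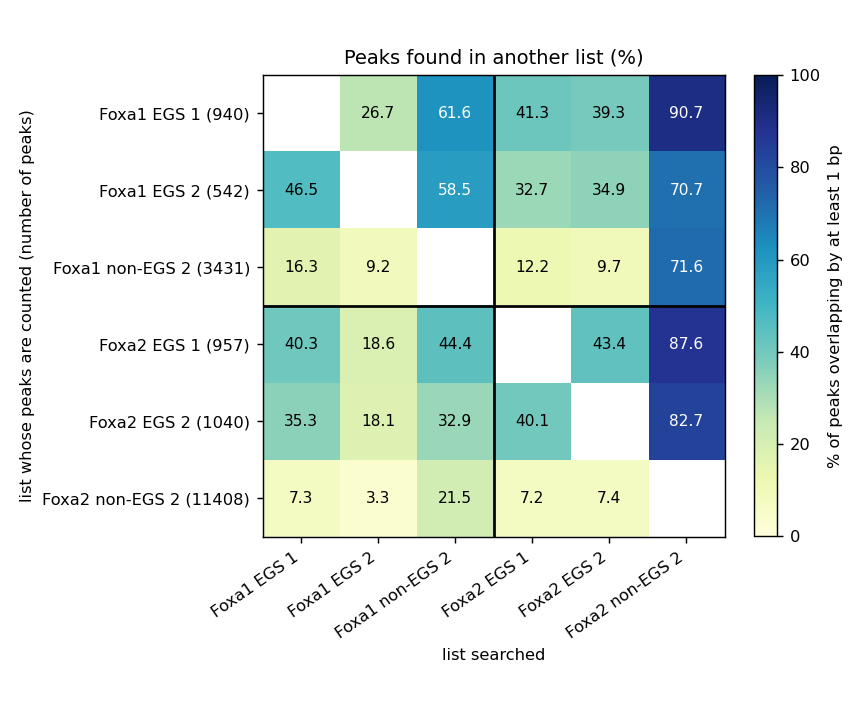
Percent of the peaks of 1 list (rows, with the number of peaks) that overlap a peak of another list (columns) by at least 1 bp, for the 3 Foxa1 lists of line 4a1 and the 3 Foxa2 lists of line 4a2. The column of the Foxa2 non-EGS list holds the highest values (70.7 to 90.7% of EGS peaks), and its row the lowest (3.3 to 21.5%).

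Against matched EGS status, 2 libraries of 1 line shared somewhat more than 2 libraries of different lines. Here sharing is the percent of the shorter list that overlaps the longer one. The EGS pair of line 4a1 shared 46.5% and that of line 4a2 shared 43.4%. The 4 EGS pairs across lines shared 41.3%, 39.3%, 32.7% and 34.9% (mean 37.0 ± 3.95, SD). Both pairs within a line thus lay above all 4 pairs across lines. The run moves with part of this: the 2 pairs across lines from run R164 shared 41.3% and 39.3%, and the 2 that set run R170 against R164 shared 32.7% and 34.9%, while the pair within line 4a1 joins both runs. Without the peaks in dense runs the 4 pairs across lines shared 39.2 to 41.2%, with little left between runs, and the pairs within lines 55.9% (4a1) and 43.4% (4a2). Over all pairs, sharing within lines was 63.4 ± 18.3% (SD, 6 pairs) and between lines 50.9 ± 21.2% (9 pairs), a difference of 12.4 percentage points. The exact permutation p was 0.1 (one-sided), the smallest that 10 labelings allow, and 0.167 when libraries were relabelled within EGS status, again the smallest possible. It was 13.2 points without dense runs (exact permutation p = 0.1), 4.98 without Foxa2 EGS 2 (exact p = 0.3), 5.65 without Foxa2 EGS 1 (exact p = 0.4), 20.2 without Foxa1 EGS 1 (exact p = 0.1) and 3.37 with the top 300 peaks of each list (exact p = 0.3). The direction turned for the Jaccard index, which divides shared by total base pairs (-1.27 percentage points).

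Among top-scoring peaks, EGS pairs within a line shared somewhat more of the top 100 than EGS pairs across lines, with little between them where the run was the same. The non-EGS lists form no pair within a line to set beside their pair across lines. Of the top 100 peaks of each list, 32% were common to the 2 non-EGS lists, against 28% and 23% for the EGS pairs within lines 4a1 and 4a2 and 12 to 22% for the EGS pairs across lines. Both pairs across lines from run R164 shared 22%, close to the 23% of line 4a2, also from R164. The pairs across lines that set R170 against R164 shared 12% and 13%, while the pair of line 4a1 joins both runs. Without dense runs the EGS pair of line 4a1 shared 37%, more than the non-EGS pair (32%), that of line 4a2 23%, and the EGS pairs across lines 14 to 22%. Of the top 200 peaks, with dense runs kept, EGS pairs shared 27.25% on average within lines and 13 to 30.5% across them. No pair within a line shared more than 28.5%. The strongest non-EGS sites were nearly all present in the other line: 95 of the top 100 Foxa1 non-EGS peaks overlapped a Foxa2 non-EGS peak, 73 of them in its top 10%, and 99 of the top 100 Foxa2 non-EGS peaks overlapped a Foxa1 non-EGS peak, 62 in its top 10%. For the EGS lists the counts depended on the list searched, of 3431 peaks for Foxa1 non-EGS and 11408 for Foxa2 non-EGS. Of the top 100 peaks, 84 of Foxa1 EGS 1, 48 of Foxa1 EGS 2, 49 of Foxa2 EGS 1 and 24 of Foxa2 EGS 2 lay in the shorter one, and 95, 54, 89 and 93 in the longer one.

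The order of the scores followed EGS status as well as line. Over overlapping peaks, the Spearman correlation of scores was 0.39 between the 2 non-EGS lists (2457 peaks), 0.38 within the EGS pair of line 4a1 (251 peaks) and 0.35 within that of line 4a2 (415 peaks). It was 0.22 to 0.27 for the 4 EGS pairs across lines. Between an EGS and a non-EGS list it was 0.30, 0.20, 0.08 and -0.03 within a line and 0.01 to 0.19 across lines. Without dense runs the EGS pairs kept values of 0.38 and 0.35 within lines and 0.22 to 0.27 across them. These correlations run across peaks of 2 libraries and are descriptions; peaks are not replicates, and the scores of all lists can share effects of peak width and local read coverage. In pairs of matched EGS status from different lines, the median distance between centres of overlapping peaks was 23.5 to 31.5 bp. At least 92.8% of these centres were within 100 bp. The overlap rule itself keeps such distances short, most of all for the narrow EGS peaks, so they are descriptions.

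**Figure D2:**
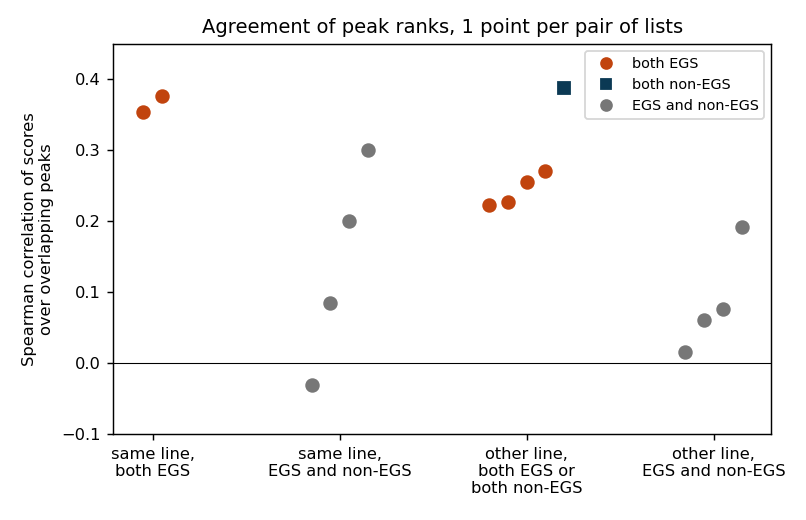
Spearman correlation of the authors' scores over overlapping peaks, 1 point for each of the 15 pairs of lists, grouped by line and EGS status. The pair of non-EGS lists from different lines (0.39) lies with the EGS pairs of a single line (0.35 and 0.38), above the pairs that join an EGS and a non-EGS list.

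Sharing was lower at lower ranks in 5 of the 6 lists. In the Foxa2 non-EGS list, 77.7% of the peaks in the top 10% by score were shared with line 4a1 and 5.69% of those in the lowest 10%. For Foxa1 non-EGS the shares were 93.6% and 56.3%. They were 97.9% and 83.5% in Foxa1 EGS 1, 80.4% and 43.7% in Foxa2 EGS 1, and 66.3% and 39.7% in Foxa2 EGS 2. Foxa1 EGS 2 went the other way, from 64.8% in its top 10%, with 48.1% in the next 10%, to 81.8% in its lowest. The peaks of this list in dense runs stood near its top: they made up 27.8% of its first decile and 50% of the next.

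The upper minus the lower part of a list, divided at the median score, differed in sharing by 6.30, -20.1 and 20.2 percentage points in Foxa1 EGS 1, EGS 2 and non-EGS 2, and by 11.0, 9.44 and 28.0 points in Foxa2 EGS 1, EGS 2 and non-EGS 2. The mean was 9.15 ± 16.4 points (SD, n = 6; above 0 in 5 of 6), and it did not pass an exact sign-flip permutation test over libraries (two-sided p = 0.219, 0.292 after Benjamini-Hochberg adjustment over 4 such results). Without peaks in dense runs the mean was 12.9 ± 9.50 points and above 0 in 6 of 6 (exact p = 0.031, the smallest that 6 libraries allow; adjusted 0.042). Each library was compared with the other line's same 3 lists, so the 6 differences are not independent. The p-values of all 4 sign-flip results, here and below, are too small for that reason.

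**Figure D3:**
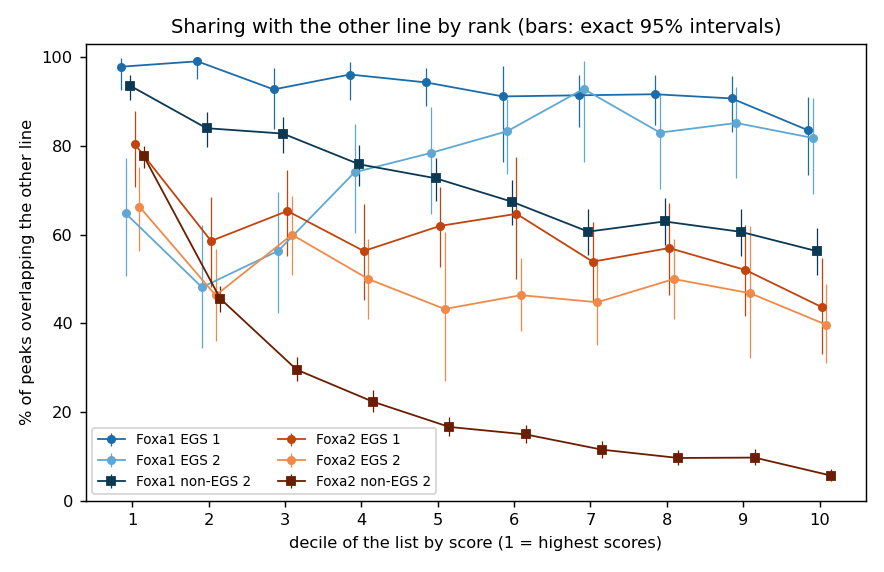
Percent of peaks that overlap any peak of the other line, by decile of the list from the highest scores (1) to the lowest (10), with exact 95% intervals; tied scores keep the deciles from being equal in size. The Foxa2 non-EGS list falls from 77.7% to 5.69%, and Foxa1 EGS 2 alone is lowest in its upper deciles.

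Shared peaks were also wider than the rest in 5 of the 6 lists. The median width of shared against not shared peaks was 146 against 112 bp in Foxa1 EGS 1, 433 against 386 bp in Foxa1 non-EGS 2, 158.5 against 124 bp in Foxa2 EGS 1, 149 against 123.5 bp in Foxa2 EGS 2 and 548 against 436 bp in Foxa2 non-EGS 2. In Foxa1 EGS 2 it was the reverse, 139 against 184 bp, and 139 against 129.5 bp without the dense runs. The mean ratio was 1.14 (log2 0.18 ± 0.30 SD, n = 6; exact sign-flip adjusted p = 0.292), and 1.20 without dense runs (log2 0.26 ± 0.11; 6 of 6 above 1, exact adjusted p = 0.042). Width and rank go together: in Foxa2 non-EGS 2 the median width was 632 bp in the top 10% by score and 357 bp in the lowest, and the part of width in sharing was not tested.

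The merged regions were then sorted by the lists that hold them. Both lines held 2814 regions (22.0%), line 4a1 alone 1141 and line 4a2 alone 8860. Single libraries made most of the line-specific regions: 942 of the 1141 were found in Foxa1 non-EGS 2 alone, and 8090 of the 8860 in Foxa2 non-EGS 2 alone. Another 1624 regions were in both non-EGS lists and in no EGS list, and 89 were in all 6 lists. Without the Foxa2 non-EGS list, 3193 regions belonged to line 4a1 only, 788 to line 4a2 only and 775 to both. Without the Foxa1 non-EGS list, 200 regions belonged to line 4a1 only and 997 to both.

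Sites found repeatedly in 1 line were then looked up in the other. Of 718 regions with peaks in at least 2 Foxa1 lists, 29 had no Foxa2 peak in any list (4.04%, interval 2.72 to 5.75). Of 1307 regions with peaks in at least 2 Foxa2 lists, 560 had no Foxa1 peak (42.8%, interval 40.1 to 45.6). With the non-EGS lists at equal length, 94 of 718 (13.1%) and 307 of 971 (31.6%) had none. With EGS lists only, the counts were 63 of 251 (25.1%) and 161 of 416 (38.7%). The share was lower for line 4a1 in these 3 comparisons, and the gap was narrower in the last 2. The direction turned when Foxa2 non-EGS 2 alone was left out, which sets 3 Foxa1 lists against 2 Foxa2 lists: 318 of 714 repeated regions of line 4a1 (44.5%) then had no Foxa2 peak, and 124 of 418 of line 4a2 (29.7%) had no Foxa1 peak. The 29 regions hang on few libraries: 1 was counted without Foxa1 non-EGS 2 and 7 without Foxa1 EGS 2. In place of 560, 360 were counted without Foxa2 EGS 1 and 289 without Foxa2 EGS 2.

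**Figure D4:**
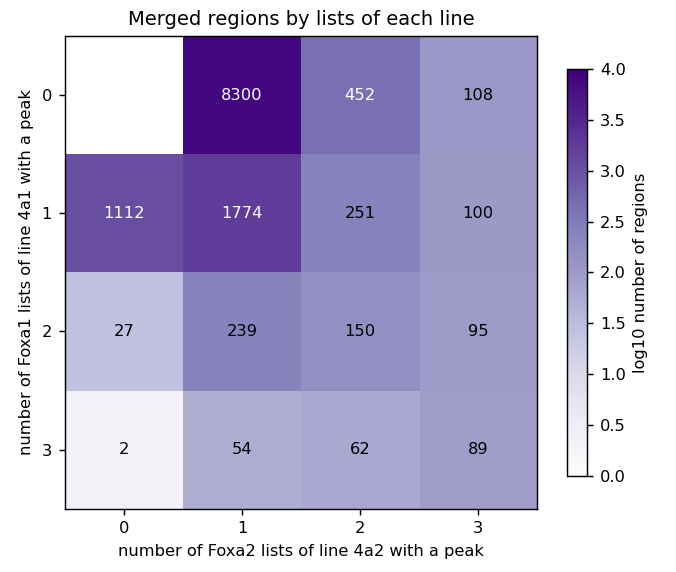
Number of merged regions by how many Foxa1 lists of line 4a1 (rows) and Foxa2 lists of line 4a2 (columns) hold a peak there; colour is on a log10 scale. Regions in 2 or 3 Foxa1 lists and in no Foxa2 list number 27 and 2, against 452 and 108 in the opposite corner.

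EGS peaks missing from their own line's non-EGS list also differed between lines in where they were found. In Foxa1 EGS 1, 361 peaks were not in Foxa1 non-EGS 2, and 281 of these (77.8%, interval 73.2 to 82.0) lay in the Foxa2 non-EGS list of the other line. In Foxa1 EGS 2, 91 of the peaks missing from Foxa1 non-EGS 2 did (40.4%), and 87 of the 134 in neither non-EGS list lay in dense runs; without dense runs the share was 64.9%. In Foxa2 EGS 1, 4 of 119 such peaks (3.36%) lay in the Foxa1 non-EGS list, and in Foxa2 EGS 2 none of 180, which allows up to 2.03% (exact upper bound). At equal length of the non-EGS lists, the shares were 169 of 361 (46.8%) and 44 peaks (19.6%) for the EGS 1 and EGS 2 lists of Foxa1, and 42 of 350 (12%) and 20 of 456 (4.39%) for Foxa2. Foxa1 EGS 1 peaks were then still found more often in the Foxa2 than in their own non-EGS list, 72.2% (interval 69.3 to 75.1) against 61.6% (58.4 to 64.7). Foxa1 EGS 2 peaks were not, with 53.5% against 58.5%, or 64.3% against 70.3% without dense runs.

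Peaks without an overlap were seldom near misses. Of the peaks not shared with the other line, between 1.25% and 5.76% lay within 1 kb of a peak of the other line in 5 lists, and 14 of 63 (22.2%) did in Foxa1 EGS 1. Across chromosomes, between 54.1% (chromosome 9, which holds a dense run of Foxa1 EGS 2) and 78.4% (chromosome 19) of the regions of line 4a1 were also in line 4a2, and 56.9% on chromosome X. In the other direction the range was 17.3% (chromosome X) to 27.2% (chromosome 8).

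The region with the highest ranks throughout was chr10:86306948-86309767, present in all 6 lists. Its peak ranked 1 in the 3 Foxa1 lists and in both Foxa2 EGS lists, and 4 in Foxa2 non-EGS 2. The merged region takes its width of 2820 bp from a single Foxa1 EGS 1 peak, whereas its best peaks in the other lists were 534 to 857 bp wide. It was also held by 2 Foxa3 lists and 1 hepatocyte list. Next came chr17:35848354-35849145, with ranks 3, 2 and 8 for Foxa1 (EGS 1, EGS 2, non-EGS 2) and 39, 98 and 48 for Foxa2 in the same order, and all 3 Foxa3 lists held it. The other leading regions of both lines were chr9:102898411-102899034, chr14:100045219-100046130 and chr4:3733954-3734909. The last of these ranked 5, 11.5 and 3 for Foxa1 (tied scores share a mean rank) and 197.5, 101 and 1 for Foxa2. In each of these 5 regions the Foxa2 EGS 2 peak was narrower than the Foxa2 non-EGS peak.

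The leading regions of line 4a1 only were in few lists. Just 2 were in all 3 Foxa1 lists: chr11:64640971-64641549, with ranks 245, 371.5 and 311, and chr12:100445113-100445722, with ranks 893, 324 and 21. The next by rule, chr16:62418470-62418950, chr15:41677498-41678012 and chr4:33957891-33958513, were in Foxa1 EGS 2 and non-EGS 2 and absent from EGS 1. Their mean score percentiles, where 100 is the top of a list, were 83.2, 75.3 and 69.5, against 65.5 and 48.3 for the first 2. None of the 5 had a Foxa3 or hepatocyte peak.

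Line 4a2 only had more regions found in all of its lists, 108 against 2. Absence from line 4a1 was judged against a shorter non-EGS list (3431 against 11408 peaks), and no such count was made at equal length. Regions in all 3 Foxa2 lists with peaks in 1, 2 and 3 Foxa1 lists numbered 100, 95 and 89. Those in all 3 Foxa1 lists with peaks in 1, 2 and 3 Foxa2 lists numbered 54, 62 and 89. Of the 108 regions, chr13:99584797-99585688 led with ranks 18, 9.5 and 731.5 (EGS 1, EGS 2, non-EGS 2) and was held by 2 Foxa3 lists. It was followed by a region on chromosome 18 with ranks 99.5, 101 and 1979, then chr2:179711646-179712055 with 61.5, 56 and 3320, chr14:32475528-32476087 with 206, 90.5 and 1345.5, and chr15:79198606-79199466 with 153, 56 and 2636.5. All 5 ranked within the first 206 in both EGS lists. Of these, 3 were also Foxa3 regions of line 4a3, and none was a hepatocyte region, as 1.67% of all regions were.

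Some regions of both lines took different places in their lists. In 246 regions with peaks in 5 or 6 lists, the score was turned into a percentile of its list (100 is the top). Percentiles were averaged by line over the lists that hold a peak, so a list without a peak does not lower the mean. The lines differed by a median of -3.62 points (4a1 minus 4a2). The difference was within 10 points in 87 of the 246 regions (35.4%) and above 0 in 110. The regions with the largest shift toward line 4a1 were chr14:99695161-99695743 (97.6 in 4a1 against 44.2 in 4a2), chr3:126693925-126694463 (90.5 against 37.7) and chr9:7547347-7547973 (91.4 against 49.1). In each, the low Foxa2 value came from the EGS lists: the Foxa2 non-EGS percentiles were 95.7, 90.2 and 99.7. The largest shift toward line 4a2 was at chr11:21302504-21303308 (24.7 in 4a1 against 95.1 in 4a2), and 2 regions on chromosome 18 followed (17.1 against 80.9, and 3.67 against 59.7). At chr11:21302504-21303308 the Foxa1 peak was low in all 3 lists, with percentiles of 12.1, 31.5 and 30.6. Foxa2 EGS 2 had no peak there, so the 4a2 mean rests on Foxa2 EGS 1 (93.6) and non-EGS 2 (96.5). Foxa1 EGS 2 had no peak at chr9:7547347-7547973 or at the regions on chromosome 18. These regions were picked for their shift, so the values are descriptions.

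Top-scoring peaks of single lists showed the same variety. The region chr10:120284296-120284857 ranked 2 and 3 in the Foxa1 EGS lists, 59 in Foxa1 non-EGS, and 256.5, 90.5 and 294 in the Foxa2 lists. At chr1:181971833-181973072, the peak ranked 2 in Foxa1 non-EGS and 16 in Foxa1 EGS 2, but 1764 in Foxa2 non-EGS, and the other lists had none. Region chr6:97161804-97162249 ranked 3 in Foxa2 EGS 1 and had no Foxa1 peak. The site chr5:137943169-137943327 was in all 4 EGS lists, with rank 2 in Foxa2 EGS 1, and in neither non-EGS list. For Foxa2 EGS 2, chr6:134779918-134780484 ranked 2 and chr1:36568334-36568902 ranked 3.5, and each had 1 peak in line 4a1, in an EGS list. For Foxa2 non-EGS, chr9:61656156-61657075 ranked 2 and chr9:61751800-61752570 ranked 3, and both were in all 6 lists.

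Foxa3 peaks of line 4a3, a readout that the comparison did not use, lay more often at shared than at other sites in all 6 lists. Of the peaks shared between lines, 32.7%, 39.2% and 12.1% overlapped a Foxa3 peak in Foxa1 EGS 1, EGS 2 and non-EGS 2, against 9.52%, 1.44% and 1.34% of the peaks not shared. In Foxa2 EGS 1, EGS 2 and non-EGS 2 the values were 38.3%, 43.1% and 14.6%, against 16.1%, 21.8% and 3.79%. The mean difference was 21.0 ± 9.97 percentage points (SD, n = 6). The exact sign-flip permutation p was 0.031, the smallest possible, and 0.125 after adjustment over the 4 results, which does not pass 0.05. Here too the 6 differences are not independent, which makes these p-values too small. Without dense runs the difference was 20.5 points with the same unadjusted exact p. Its adjusted exact p of 0.042 is lower because 2 other results then reached the smallest p, not because the Foxa3 difference grew, and some of those runs were found in Foxa3 lists. With dense runs taken from the 6 compared lists alone, an alternative chosen after seeing the data, the difference was 20.6 points (unadjusted exact p = 0.031). Shared peaks also rank higher and are wider, and the part of these in the difference was not tested.

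**Figure D5:**
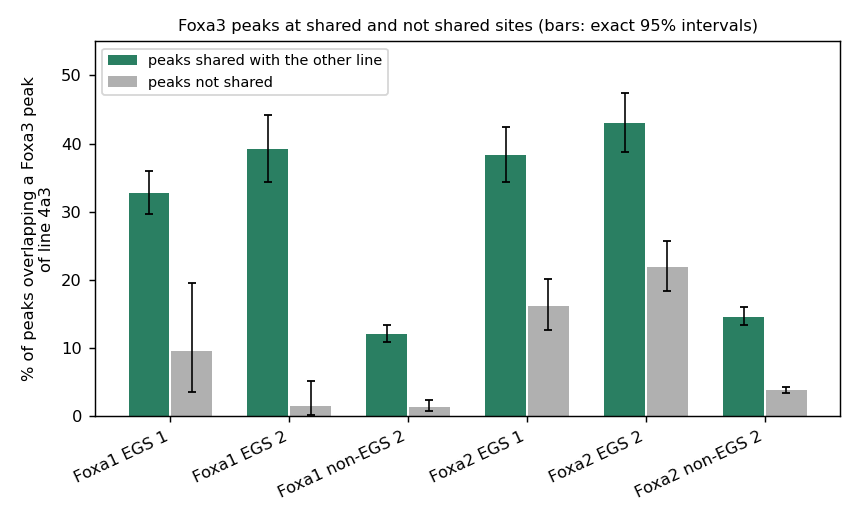
Percent of peaks that overlap a peak of any Foxa3 list of line 4a3, for peaks shared with the other line (green) and not shared (grey), in each of the 6 lists with exact 95% intervals. Shared peaks are higher in every list, and peaks not shared reach 16.1% and 21.8% in the Foxa2 EGS lists.

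The more lists held a region, the more often Foxa3 was found there. The share of regions with a Foxa3 peak was 2.74% for regions in 1 list, 6.92% in 2, 23.5% in 3, 32.9% in 4, 55.4% in 5 and 58.4% in all 6 (52 of 89, interval 47.5 to 68.8). Median region width moved with it, from 420 bp in 1 list to 651 bp in 6, and its part was not tested. Of regions in 2 Foxa2 lists only, 17.5% (79 of 452, interval 14.1 to 21.3) had a Foxa3 peak, against 4.34% (77 of 1774, interval 3.44 to 5.40) of regions with 1 Foxa1 and 1 Foxa2 list. Most of the latter (1624) were in the 2 non-EGS lists, whose share was 3.57%. Of the 560 repeated regions of line 4a2 only, 20.9% had a Foxa3 peak (interval 17.6 to 24.5), and of the 29 of line 4a1 only none had, which allows up to 11.9%. Of the 419 regions of both lines with a Foxa3 peak, 314 were in the Foxa3 non-EGS list, 193 in Foxa3 EGS 1 and 1 in Foxa3 EGS 3.

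For hepatocyte Foxa peaks the lists pointed in both directions. These peaks overlapped 65 of 2814 regions of both lines (2.31%), 102 of 1141 of line 4a1 only (8.94%) and 47 of 8860 of line 4a2 only (0.53%). Over all regions it was 214 of 12815 (1.67%). Of the 1141 regions of line 4a1 only, 83 lay in dense runs. Among the 942 that were in Foxa1 non-EGS 2 alone, 4 (0.42%) had a hepatocyte peak. Within lists, shared minus not shared peaks differed by -8.20 ± 25.4 percentage points (SD, n = 6; above 0 in 4 of 6; exact permutation adjusted p = 0.875). Foxa1 EGS 2 lay farthest from the other lists: 66.9% of peaks not shared lay in hepatocyte peaks against 7.20% of shared ones. The chromosome 9 stretch of its dense run also held dense runs of all 3 hepatocyte lists. Without dense runs the values of Foxa1 EGS 2 were 20.7% and 5.09%. The mean difference was 1.66 points without Foxa1 EGS 2 and 0.20 points without Foxa2 non-EGS 2. Without dense runs it was -0.74 points (exact permutation adjusted p = 0.938). Regions in all 6 lists had the highest share, 13 of 89 (14.6%, interval 8.01 to 23.7), of which 12 were in the hepatocyte Foxa2 list and none in the hepatocyte Foxa1 list.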

How the data were processed

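Peak lists of 6 libraries were compared, with 6 further lists as outside readouts. Dense runs were sought in every list; the Flag lists held none and were not used further. A deposited line holds a chromosome, start, end, name and score, and neither the scale of that score nor the calling threshold nor any use of input is given in the sources used here. The submitters' processing notes name BWA 0.6.2, bedtools 2.16.2 and MACS2 2.1.0, with build mm9. Starts are written 1-based. Overlaps, merged regions and exact permutation tests over libraries were computed with Python 3.11.15, numpy 2.4.6 and scipy 1.17.1, and tested on simulated lists with planted overlaps. Intervals are exact 95% Clopper-Pearson intervals.

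Named regions are, for both lines and for each line only, the 5 in most libraries (ties by mean score percentile). They also include the 3 with the largest rank shift each way among those in at least 5 lists, and the 3 top peaks of each list. Members, lists and tests were chosen with earlier results of these data known. Alternatives were other overlaps, thresholds, list lengths and subsets of libraries.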

Additional observations from a re-analysis of the deposited data

How the results depend on the processing

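Under the alternatives, 125 values kept direction and side of the threshold, or moved within the stated error, and 47 shares or counts moved further. These follow, in the order share of line 4a1 regions found in 4a2, share of 4a2 regions found in 4a1, regions of both lines, of 4a1 only, of 4a2 only, and repeated regions of 4a1 only and of 4a2 only, where each moved. Their main values were 71.3%, 24.1%, 2814, 1141, 8860, 29 and 560. Restricting each list to its upper 50% by score, the moved values were 68.1% (4a1 in 4a2), 1397, 655, 4564, 12 and 290. The top 300 peaks gave 37.1%, 36.0%, 254, 432, 452, 49 and 71. EGS libraries only gave 47.2%, 36.5%, 575, 650, 1003, 63 and 161. With the Foxa2 non-EGS list at the length of the Foxa1 one, an alternative chosen after seeing the data, the moved values were 48.2%, 46.1%, then 2056, 2223, 94 and 307 for the last 4 counts. Regions of both lines then numbered 1901, which lies within the factor of 1.5. The 4a1 share was 72.7% without dense runs, also with those of the 6 lists only (chosen after seeing the data), and 73.6% with peaks within 1 kb merged, and the 4a2 share was 21.5% with non-EGS libraries only. Lists cut short hold fewer peaks, and for the remaining changes the cause was not tested.

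Leaving out 1 library at a time gave 19.6 to 83.7% (4a1 in 4a2), 8.55 to 50.1% (4a2 in 4a1), 775 to 2803, 200 to 3193, 788 to 10679, 1 to 318 and 124 to 750. It gave -0.50 to 0.082 for log10 peak number, -0.52 to 0.56 for log2 width and -12.6 to 1.66 percentage points for hepatocyte peaks. Log2 width also turned sign with EGS libraries only (0.051) and with the top 300 peaks (0.053), hepatocyte peaks with EGS libraries only (0.47), and sharing within minus between lines by the Jaccard index (-1.27). Without dense runs, sharing by rank (12.9) and log2 width of shared peaks (0.26) passed the threshold, and with dense runs of the 6 lists only they did too (12.9 and 0.27). Foxa3 peaks (20.5 and 20.6) kept their unadjusted exact p of 0.031, and only the adjustment over the 4 results changed. With a replicate block, which paired libraries by culture number and EGS status, peak number differed by -0.27 (exact p = 0.25, the smallest possible) and width by -0.01 (exact p = 1). Same-numbered EGS libraries of the 2 lines did not deviate together (r = 0.04 over 2159 regions), and the main tests did not treat them as pairs. With only 2 EGS libraries a line, this value cannot settle whether the cultures are paired. Read depth is unknown.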
